A study of Mus musculus with 8 samples.

Results

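The Idd3 interval of mouse chromosome 3 takes its name from insulin-dependent diabetes, and NOD mice, which develop autoimmune diabetes spontaneously, carry a susceptible form of it. The 10 genes described here lie at and around its best known gene, Il2. They are Exosc9, Ccna2, Bbs7, 4932438A13Rik, Il2, Il21, Nudt6, Spata5, Spry1 and Ankrd50, in the order in which they lie along the chromosome in RefSeq assembly GRCm38.p6. They were chosen by name and position, with earlier results of these data known. Every probe set that the platform annotation assigns to exactly 1 of them was taken, which gave 20 probe sets. One further probe set, annotated to Il2 together with other symbols, was left out. The whole table names 18193 genes through 34945 probe sets with 1 symbol. Between Anxa5 and Fat4, the genes that flank the set, RefSeq lists 58 genes, of which 20 code for protein and 10 are the genes described here.

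Expression was measured in CD11b+ cells, a myeloid fraction, on 8 one-colour arrays. The 4 groups, of 2 arrays each, were NOD and NOD.Idd3 cells, without stimulus or with peptidoglycan (PGN) at 5 µg/ml. Cells of all 4 groups were kept for 4 h at 37 °C. PGN is a bacterial cell wall polymer sensed by innate immune cells. NOD.Idd3 is a congenic strain: NOD mice in which the Idd3 interval comes from a diabetes-resistant strain, so the genes described here lie at or near the segment that sets the strains apart. The labels give neither the donor strain nor the ends of the exchanged segment, nor the tissue, age or sex of the animals. They call the arrays within a group biological replicates and do not tell single animals from pools, so that a p-value here speaks only for the spread among these 8 samples. Array medians lay between 5.42 and 5.50 on the log2 scale, arrays of 1 group correlated at 0.983 to 0.991, and Itgam, which encodes CD11b, lay between 7.87 and 9.02. In bulk samples, fewer cells of a type and less RNA per cell cannot be told apart.

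Interleukin-2, the product of Il2, is made mainly by activated T cells and sustains regulatory T cells, and interleukin-21, made by helper T cells from the adjacent gene Il21, acts on B cells, T cells and natural killer cells. Lower production of interleukin-2 has long been the leading account of the susceptible Idd3 form. The other genes serve unrelated housekeeping or signalling roles: Exosc9 is a subunit of the RNA-degrading exosome, Ccna2 encodes cyclin A2, Bbs7 a subunit of the ciliary trafficking complex BBSome, 4932438A13Rik (now Bltp1) a very large lipid transfer protein, Nudt6 a nudix hydrolase, Spata5 an AAA ATPase, Spry1 an inhibitor of growth factor signalling through ERK, and Ankrd50 an ankyrin repeat protein of endosomal recycling.

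1 probe set of 4932438A13Rik differed between the strains by more than any other probe set on the array, while the 3 others of the same gene differed far less and Il2 and Il21 were dim on every array. Values are log2 intensities unless stated otherwise. Only arrays of 1 probe set are compared with each other, since probe sets differ in brightness for reasons of design.

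**Figure D1:**
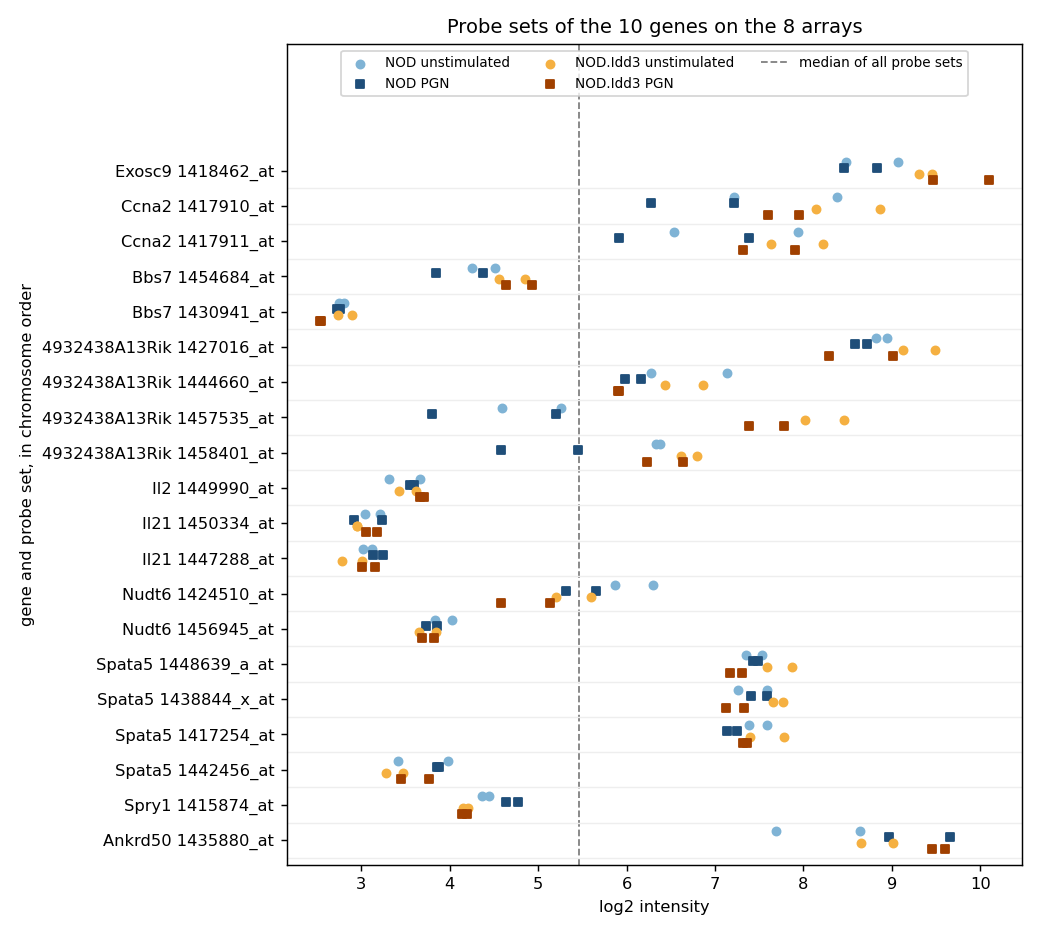
Log2 intensity of the 20 probe sets of the 10 genes (vertical axis, in chromosome order) on each of the 8 arrays (points, coloured by strain and condition), with the median of all probe sets as a dashed line. Probe set 1457535_at of 4932438A13Rik is the one whose NOD.Idd3 arrays, at 7.39 to 8.46, stand far to the right of its NOD arrays, at 3.80 to 5.25.

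The 4 probe sets of 4932438A13Rik gave 4 different pictures. Probe set 1457535_at read 4.59 and 5.25 on the unstimulated NOD arrays and 3.80 and 5.20 on the NOD arrays with PGN. On the NOD.Idd3 arrays it read 8.46 and 8.02 unstimulated, and 7.39 and 7.78 with PGN. Every NOD value was below the median of its array, every NOD.Idd3 value was above it, and the strains were separated by more than 2 log2 units with no overlap. The strain difference (NOD.Idd3 minus NOD) was 3.32 ± 0.44 (SE) unstimulated, or 9.96-fold with a 95% confidence interval of 5.00 to 19.8, and 3.09 ± 0.44 with PGN, or 8.49-fold (4.26 to 16.9). Averaged over the conditions it was 3.20 ± 0.31, or 9.19-fold (5.65 to 15.0). This was the largest absolute difference among all 45037 probe sets tested in each of these 3 comparisons, and the only one of 3 or more. The next largest averaged difference, of the macrophage scavenger receptor Cd163, was -1.91. The arrays of replicate number 1 gave strain differences of 3.87 unstimulated and 3.59 with PGN, and those of number 2 gave 2.77 and 2.58.

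Even so, it did not pass the test over all probe sets in the plain comparison of group means. The adjusted p (limma, Benjamini-Hochberg over 45037 probe sets) was 0.115 for the averaged difference, 0.636 unstimulated and 0.761 with PGN. In the averaged difference it had the smallest p of the table, 3.36e-06 unadjusted. No probe set of any gene passed in any of these 3 comparisons: 0% of all probe sets were called, with 1461 at an unadjusted p under 0.05 unstimulated, 2938 with PGN and 3096 on average. With the replicate number as a block the averaged difference of 1457535_at passed, with an adjusted p of 0.0156, as 1 of 25 probe sets of the table (0.0555%). It was also the only probe set of the table to pass with a term for a suffix that 3 array names carry (3.41, adjusted p 0.025) and with a variance trend (adjusted p 0.0449), and it passed without NOD PGN replicate 2 (3.55, adjusted p 0.0337). Over the 15 alternatives run its adjusted p ranged from 0.0156 to 0.789 and its difference from 2.58 to 3.55.

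**Figure D2:**
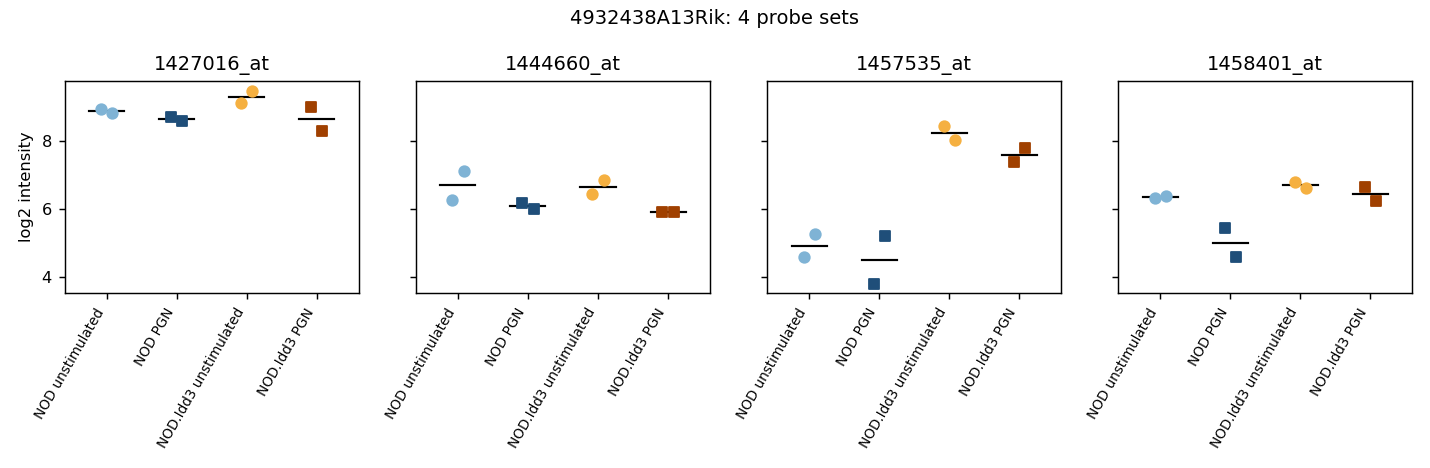
Log2 intensity of the 4 probe sets of 4932438A13Rik (panels) in the 4 groups (horizontal axis), with 1 point per array and a bar at the mean of the 2 arrays. The NOD.Idd3 groups stand above the NOD groups at 1457535_at, 1458401_at is lowest in NOD with PGN, and the strains overlap at 1427016_at and 1444660_at.

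None of the 3 other probe sets of 4932438A13Rik showed a strain difference of that size. Probe set 1427016_at, the brightest of the gene, read 8.95 and 8.82 in unstimulated NOD, 8.71 and 8.59 in NOD with PGN, 9.13 and 9.49 in unstimulated NOD.Idd3, and 9.01 and 8.29 in NOD.Idd3 with PGN. The strains overlapped, and the averaged difference was 0.21 ± 0.19 (95% confidence interval -0.22 to 0.65). Probe set 1444660_at read 6.28 and 7.13, then 6.17 and 5.99 in NOD, and 6.44 and 6.86, then 5.90 and 5.92 in NOD.Idd3, in the same order of groups. Its strains overlapped as well, at -0.11 ± 0.21 (-0.59 to 0.37). Probe set 1458401_at read 6.33 and 6.38 in unstimulated NOD and 6.79 and 6.62 in unstimulated NOD.Idd3. With PGN it read 5.45 and 4.58 in NOD and 6.64 and 6.23 in NOD.Idd3, so that both NOD.Idd3 arrays lay above both NOD arrays in each condition. The strain difference of 1458401_at was 0.35 ± 0.30 unstimulated and 1.42 ± 0.30 with PGN, and 0.89 ± 0.21 on average (adjusted p 0.501). No interval of these 3 probe sets for the averaged difference reached 1.5, and that of 1457535_at began at 2.50. With PGN alone, the interval of 1458401_at, 0.74 to 2.10, just met that of 1457535_at, 2.09 to 4.08. Neither passed there (limma adjusted p 0.761 for both).

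The averaged strain differences of the gene's probe sets thus spanned 3.31 log2 units, the widest span of the 9010 genes with several probe sets, whose median span was 0.24. Probe sequences were not used here, and whether the strains differ in sequence under these probes, or in which transcripts carry them, was not tested. The region just before the gene's start is shown because it is the control region of the gene with the largest difference. It is written 5′ to 3′ from RefSeq (GRCm38.p6, chr3:36862856-36863105, + strand), 250 bases up to the start, in lower case with the GC box letters GGGCGG, read on either strand, in capitals; 1 pair of matches overlaps by a base.

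4932438A13Rik: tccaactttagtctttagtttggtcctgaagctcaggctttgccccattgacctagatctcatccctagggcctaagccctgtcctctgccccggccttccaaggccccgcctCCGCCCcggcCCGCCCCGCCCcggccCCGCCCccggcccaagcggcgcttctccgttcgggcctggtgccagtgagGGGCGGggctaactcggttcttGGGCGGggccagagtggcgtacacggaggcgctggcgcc

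This window held 6 GC boxes and 69.2% G and C, against a median of 52.4% over 32851 RefSeq promoter windows of this length, of which 32.7% held a GC box. It held none of the other letters searched, which were the TATA box (TATAAA), the CCAAT box, the NFAT core (GGAAA) and the AP-1 letters TGANTCA. A match describes the letters only and shows no bound factor.

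**Figure D3:**
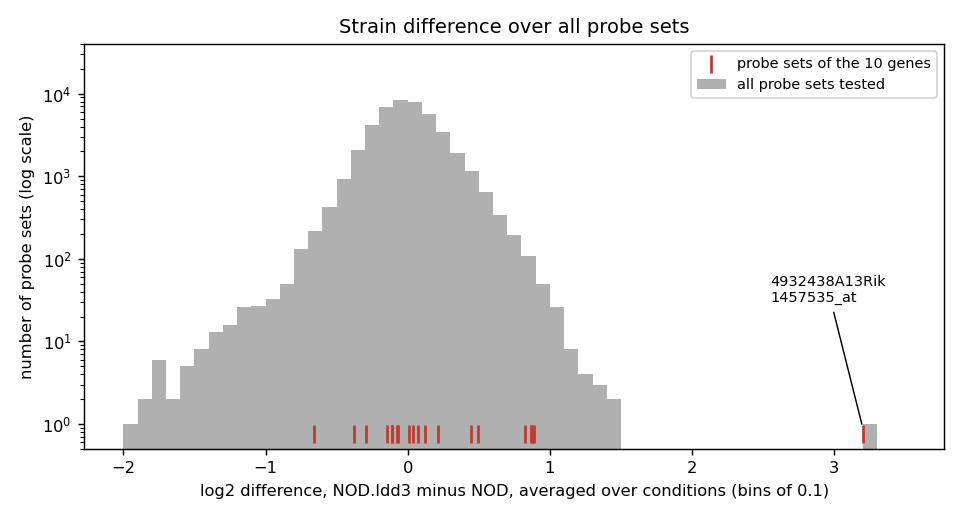
Number of probe sets (vertical axis, log scale) by averaged strain difference in log2 units, NOD.Idd3 minus NOD (horizontal axis, bins of 0.1), for all 45037 probe sets tested, with the 20 of the 10 genes as red ticks. 1 bar stands alone near 3.2, and it holds 1457535_at; the other 19 ticks lie between -0.66 and 0.89.

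For the cytokine genes Il2 and Il21, no strain or PGN difference was detectable at these signal levels. Il2 (1449990_at) read 3.66 and 3.32 in unstimulated NOD, 3.59 and 3.55 in NOD with PGN, 3.42 and 3.62 in unstimulated NOD.Idd3, and 3.66 and 3.71 in NOD.Idd3 with PGN. All 8 values were below the 25th percentile of their arrays, which ranged from 3.84 to 4.05. Over all arrays the strains overlapped, and so did the unstimulated and PGN arrays. The Il21 probe sets had means at the 6.4th and 6.2nd percentile of all probe sets. Il21 1450334_at lay between 2.91 and 3.23 and 1447288_at between 2.78 and 3.24, with overlap of strains and of conditions over all arrays. The table holds no detection calls, so whether these values are above background is unknown.

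The averaged strain difference of Il2 was 0.08 ± 0.15 (95% confidence interval -0.26 to 0.41), that of Il21 -0.07 ± 0.15 (-0.40 to 0.26) by 1450334_at and -0.14 ± 0.14 (-0.46 to 0.18) by 1447288_at. The averaged PGN effects were 0.12 ± 0.15 for Il2, and 0.06 ± 0.15 and 0.16 ± 0.14 for Il21. None of these passed, with adjusted p of 0.558 or more. A change in RNA under the background light of the array would not be seen. Transcripts of T cell markers were measured on the same arrays. The T cell list (9 of 10 genes measured, 3 of them under the median of the arrays) averaged 6.87 to 7.24 over the arrays. Cd3d, a chain of the T cell receptor complex, lay between 10.18 and 12.44. The chains Cd3e and Cd3g lay at 6.51 to 7.30 and 5.96 to 7.80. Cd4 lay at 6.63 to 7.86 (1419696_at) and 3.30 to 4.09 (1427779_a_at). Cd28 lay at 3.77 to 4.51 (1417597_at) and 4.89 to 5.65 (1437025_at).

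The start regions of both cytokine genes are shown because Il2 is the gene around which the interval is usually discussed and Il21 its neighbour. They are RefSeq windows of 250 bases before the start (GRCm38.p6, chr3:37125955-37126204 for Il2 and chr3:37232637-37232886 for Il21, both on the - strand). Capitals mark the TATA box letters TATAAA, the CCAAT letters and the NFAT core GGAAA, each read on either strand.

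Il2: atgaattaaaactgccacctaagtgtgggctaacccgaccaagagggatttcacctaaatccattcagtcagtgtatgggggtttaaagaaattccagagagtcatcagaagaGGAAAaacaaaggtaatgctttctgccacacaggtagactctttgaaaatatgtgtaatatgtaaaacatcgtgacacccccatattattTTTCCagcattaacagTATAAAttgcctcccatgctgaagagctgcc

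Il21: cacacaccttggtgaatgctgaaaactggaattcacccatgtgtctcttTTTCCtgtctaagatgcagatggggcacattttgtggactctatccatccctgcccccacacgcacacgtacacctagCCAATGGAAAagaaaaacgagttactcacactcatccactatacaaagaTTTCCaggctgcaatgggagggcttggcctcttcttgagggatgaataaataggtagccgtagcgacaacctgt

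The Il2 window held 1 TATA box, whose first base lies 31 bases before the start, and 2 NFAT cores, at 137 and 47 bases before it. TATAAA occurred in 12.4% of all windows and GGAAA in 55.6%, so the second is a common string. The Il21 window held 1 CCAAT box, at 123 bases, with 1 of its 3 NFAT cores right behind it at 118 bases; 33.8% of all windows held CCAAT. Neither window held a GC box or the AP-1 letters, which 6.75% of all windows held. Their G and C content was 40.4% for Il2 and 47.6% for Il21, under the median of all windows.

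At the Anxa5 end of the set, Exosc9 was higher on every NOD.Idd3 array than on any NOD array. Its probe set 1418462_at read 8.49 and 9.07 in unstimulated NOD and 8.46 and 8.83 with PGN. In NOD.Idd3 it read 9.31 and 9.46 unstimulated and 9.47 and 10.10 with PGN. The averaged difference was 0.87 ± 0.21, or 1.83-fold (1.32 to 2.54), without passing (adjusted p 0.501). Over all genes together, 1.33% of probe sets had all 4 NOD.Idd3 arrays above all 4 NOD arrays and 1.51% had them below. Among the 20 probe sets described here, 3 were above (Exosc9, Bbs7 1454684_at and 4932438A13Rik 1457535_at), 1 was below (Spry1) and 16 overlapped.

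Ccna2, which is needed for DNA replication and entry into mitosis, adjoins Exosc9, and the annotated genes overlap each other. Its probe set 1417910_at read 7.22 and 8.38 in unstimulated NOD, 6.27 and 7.22 in NOD with PGN, 8.14 and 8.87 in unstimulated NOD.Idd3, and 7.60 and 7.95 in NOD.Idd3 with PGN. In each group the array of replicate number 2 was the higher one, by 0.79 on average, and by 1.01 at the second probe set, 1417911_at, which covered 5.92 to 8.22. The strains overlapped. The averaged strain differences, 0.87 ± 0.32 and 0.82 ± 0.39, had adjusted p of 0.675 and 0.750.

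Bbs7 was dim. Its probe set 1454684_at read 4.51, 4.25, 4.38 and 3.84 on the NOD arrays and 4.56, 4.85, 4.63 and 4.93 on the NOD.Idd3 arrays, in the order unstimulated then PGN. The NOD.Idd3 arrays were all higher, the nearest by under 0.1, and the averaged difference was 0.50 ± 0.18 (adjusted p 0.675). The second probe set, 1430941_at, lay between 2.53 and 2.89, at the 1.2th percentile of all probe sets, and differed by -0.08 ± 0.13.

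On the other side of Il21, Nudt6 and Spry1 had lower mean values in NOD.Idd3. By the annotated gene bounds, Nudt6 overlaps the growth factor gene Fgf2 and also Spata5. Its probe set 1424510_at read 5.87 and 6.30 in unstimulated NOD and 5.31 and 5.65 in NOD with PGN. In NOD.Idd3 it read 5.60 and 5.20 unstimulated and 4.58 and 5.13 with PGN. The strains overlapped across conditions but not within one. The averaged difference was -0.66 ± 0.20 (adjusted p 0.619), and the dim second probe set, 1456945_at, differed by -0.11 ± 0.14. Spry1 (1415874_at) read 4.44 and 4.36 unstimulated and 4.64 and 4.77 with PGN in NOD, against 4.21 and 4.15, then 4.19 and 4.14 in NOD.Idd3. All 4 NOD.Idd3 arrays were lower, by -0.38 ± 0.13 on average (1.30-fold, 1.05 to 1.61), and this did not pass either (adjusted p 0.675).

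Spata5 has 4 probe sets, 3 of them well above the array medians at 7.13 to 7.87 on all arrays, and 1 dim (1442456_at, 3.28 to 3.98). Their averaged strain differences lay between -0.29 and 0.12, each with an interval that holds 0. By the promoter windows used here, Nudt6 and Spata5 are read away from each other from adjoining starts. Their start regions are shown because the windows share 147 bases, written here from opposite strands (RefSeq GRCm38.p6, chr3:37419597-37419846, - strand, for Nudt6 and chr3:37419700-37419949, + strand, for Spata5). Capitals mark GC boxes and NFAT cores on either strand, and neighbouring GC boxes can share a base.

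Nudt6: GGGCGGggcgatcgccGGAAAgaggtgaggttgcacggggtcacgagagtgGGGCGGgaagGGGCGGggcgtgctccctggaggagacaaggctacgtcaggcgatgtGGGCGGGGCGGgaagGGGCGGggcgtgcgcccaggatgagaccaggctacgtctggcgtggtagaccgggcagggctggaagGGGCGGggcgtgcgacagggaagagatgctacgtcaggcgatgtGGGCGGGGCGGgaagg

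Spata5: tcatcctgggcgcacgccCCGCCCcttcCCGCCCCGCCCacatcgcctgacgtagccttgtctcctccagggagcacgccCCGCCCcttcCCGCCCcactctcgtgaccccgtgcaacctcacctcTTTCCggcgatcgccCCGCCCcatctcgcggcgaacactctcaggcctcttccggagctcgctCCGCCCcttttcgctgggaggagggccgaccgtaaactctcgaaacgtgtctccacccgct

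There were 9 GC boxes before Nudt6 and 7 before Spata5, in sequence of 71.6% and 69.2% G and C, and 1 NFAT core in each. Although the windows overlap, the strain differences of the 2 genes were not alike. That of the brighter probe set of Nudt6, whose mean lay at the 49.9th percentile, was -0.66. Those of the 3 bright probe sets of Spata5 were 0.01 to 0.12. The difference between the genes was not tested.

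Ankrd50, the last gene of the set before Fat4, read 7.69 and 8.64 in unstimulated NOD, 8.96 and 9.66 in NOD with PGN, 8.65 and 9.02 in unstimulated NOD.Idd3, and 9.45 and 9.61 in NOD.Idd3 with PGN (1435880_at). The strains overlapped, with an averaged difference of 0.44 ± 0.25 (adjusted p 0.785).

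**Figure D4:**
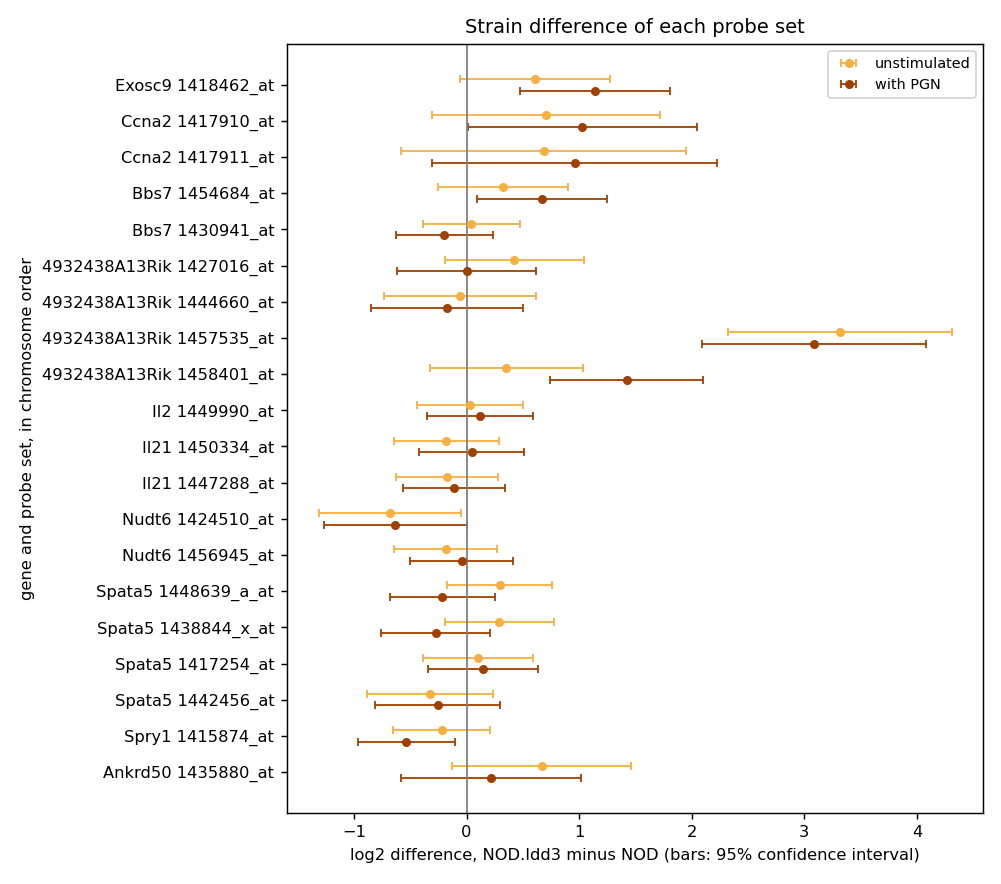
Strain difference, NOD.Idd3 minus NOD in log2 units (horizontal axis), of each of the 20 probe sets (vertical axis) unstimulated and with PGN; points are limma estimates and bars 95% confidence intervals. Probe set 1457535_at stands at 3.32 and 3.09, and 1458401_at at 0.35 and 1.42.

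Across the 20 probe sets, the median absolute strain difference was 0.25 on average over conditions, against 0.14 over all probe sets, 0.31 against 0.15 unstimulated and 0.24 against 0.22 with PGN. At an unadjusted p under 0.05, the averaged difference held 7 of the 20 (Exosc9, Ccna2 1417910_at, Bbs7 1454684_at, 4932438A13Rik 1457535_at and 1458401_at, Nudt6 1424510_at and Spry1), where 6.87% of all probe sets did. With PGN there were 6 of the 20 beside 6.52% of all, and unstimulated 2 beside 3.24%. Of the 7, 5 were higher in NOD.Idd3 and 2 lower. The signs were mixed over all 20: 12 of the 20 averaged differences were positive and 8 negative. Because the genes were chosen with earlier results of these data known, these shares only describe the set.

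Summed levels of some markers of other cell types, and 1 sign of RNA quality, were also set apart by strain. The macrophage list (9 of 9 genes measured, 1 under the array median) averaged 9.47 to 9.71 over the NOD arrays and 8.67 to 8.87 over the NOD.Idd3 arrays, and the B cell list (6 of 7 genes, 2 under the median) 7.15 to 8.33 against 6.21 to 6.89. No marker probe set of either list passed in the plain fit, and 4 of 12 and 4 of 8 passed, all lower in NOD.Idd3, with the replicate block. Their averaged list medians were -1.16 and -1.20. The list of CD11b+ myeloid genes, at 12.66 to 12.99 in all groups, had a median of -0.04 and the T cell list -0.07. The medians of the dendritic cell, erythroid and platelet lists were -0.31, -0.51 and -0.60. The dendritic cell list also did not overlap between strains, averaging 8.20 to 8.46 over the NOD arrays and 7.78 to 8.07 over the NOD.Idd3 arrays. None of its probe sets passed, with or without the block. The Gapdh control's 3′ minus 5′ signal was 0.88 to 1.16 in NOD and 0.72 to 0.80 in NOD.Idd3. That of the Actb control was 0.43 to 0.58 in NOD and 0.22 to 0.46 in NOD.Idd3, lower for the most part but overlapping. The part of these differences in the members' values was not tested.

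The 10 other measured genes between Anxa5 and Fat4, with 12 probe sets, were examined as the nearest comparison. None passed in any comparison of strain or PGN, with or without the replicate block. The smallest strain p among them was that of the centrin gene Cetn4 (1436617_at), at 0.66 ± 0.24 with an adjusted p of 0.675, while its other probe set, 1445511_at, differed by -0.03 ± 0.14. Adad1, which lies between 4932438A13Rik and Il2, differed by -0.25 ± 0.23, and Fgf2, which overlaps Nudt6, by 0.01 ± 0.14 at a level of 3.10 to 3.46. The large difference of 1457535_at was not seen at the probe sets of the nearest genes measured here on either side, Bbs7 and Adad1.

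The PGN calls among the members were about as frequent as over all probe sets within each strain. In NOD, 1 of the 20 probe sets passed, where 3.55% of all probe sets did. In NOD.Idd3 it was 0 of 20 beside 2.32% of all, with 4 of the 20 at an unadjusted p under 0.05, as were 14.4% of all probe sets. Averaged over the strains 1 of 20 passed beside 10.0% of all. The probe set that passed was 1458401_at of 4932438A13Rik, which fell by 1.34 ± 0.30 in NOD, or 2.53-fold (1.58 to 4.05), with an adjusted p of 0.048. Averaged over the strains it fell by 0.81 ± 0.21 (adjusted p 0.0456), and in NOD.Idd3 it changed by -0.27 ± 0.30 (adjusted p 0.808).

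That call is fragile. In NOD it held in 3 of the 16 alternatives run, with adjusted p from 0.0145 to 0.255; it held with the replicate block (0.0145), with a filter on dim probe sets (0.0397) and without NOD PGN replicate 1 (-1.77, 0.0287), and was lost without any other single array. NOD PGN replicate 2 is the lowest array of this probe set, and without it the change was -0.91 with an adjusted p of 0.176. The averaged change held in 4 of 15 alternatives, with adjusted p from 0.0151 to 0.147. The difference in PGN effect between the strains, 1.07 ± 0.42, had an unadjusted p of 0.0329 and an adjusted p of 1.0. No probe set of the table passed in that comparison (0%, with 980 at an unadjusted p under 0.05).

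All 4 probe sets of 4932438A13Rik had negative PGN effects in both strains, from -0.23 to -1.34 in NOD and from -0.27 to -0.74 in NOD.Idd3. Over the alternatives run these signs held, except that 1457535_at in NOD turned positive without NOD PGN replicate 1. Probe set 1444660_at was lower on all 4 PGN arrays than on any unstimulated array, as was Spata5 1417254_at, and the other 18 overlapped. Over all genes together, 8.66% of probe sets had all PGN arrays below all unstimulated arrays and 7.95% had them above. The averaged effect on 1444660_at was -0.69 ± 0.21 (adjusted p 0.0787, and 0.0402 with the replicate block), that on 1457535_at -0.54 ± 0.31 and that on 1427016_at -0.44 ± 0.19.

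With the replicate block, which takes the gap between replicate numbers out of the error, Ankrd50 and Ccna2 passed as well. Ankrd50 was higher with PGN by 1.14 ± 0.35 in NOD, or 2.21-fold (1.27 to 3.84), with an adjusted p of 0.122 without the block and 0.0227 with it. Averaged over the strains Ankrd50 differed by 0.92 ± 0.25, with 0.0505 and 0.00692. Apart from leaving out single arrays, Ankrd50 passed in 7 of 8 alternatives on average, and in 1 of 9 in NOD. Ccna2 1417910_at differed by -1.05 ± 0.45 in NOD (0.254 and 0.0306) and by -0.89 ± 0.32 on average (0.123 and 0.00787). It passed in 1 of 9 such alternatives in NOD and in 1 of 8 on average. The second Ccna2 probe set, at -0.45 ± 0.39 on average, did not pass with the block (0.166). The block brought the count of passing probe sets to 3 of 20 in NOD, beside 7.98% of all, and to 4 of 20 on average, beside 15.3% of all. In NOD.Idd3 the effects of Ankrd50, 0.70 ± 0.35, and of Ccna2 1417910_at, -0.73 ± 0.45, had the same signs and did not pass.

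**Figure D5:**
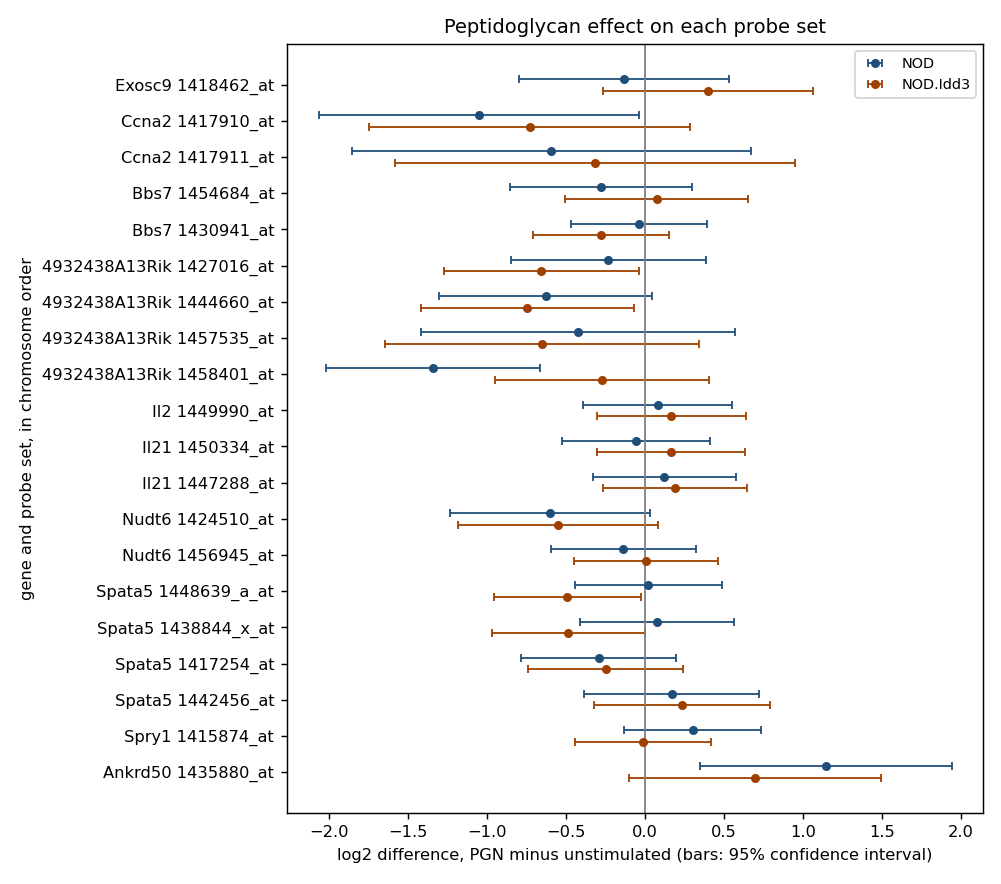
PGN effect, PGN minus unstimulated in log2 units (horizontal axis), of each of the 20 probe sets (vertical axis) in NOD and NOD.Idd3; points are limma estimates and bars 95% confidence intervals. Ankrd50 lies to the right at 1.14 and 0.70, Ccna2 1417910_at to the left at -1.05 and -0.73, and 1458401_at at -1.34 in NOD and -0.27 in NOD.Idd3.

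The remaining members had small PGN effects. Exosc9 changed by 0.13 ± 0.21 on average, Spry1 by 0.14 ± 0.13, Bbs7 1454684_at by -0.10 ± 0.18, and Nudt6 1424510_at by -0.57 ± 0.20 (adjusted p 0.112). Levels of several marker lists were also set apart by PGN, with no overlap between conditions over the arrays of both strains. That of the CD11b+ myeloid genes averaged 12.90 to 12.99 unstimulated and 12.66 to 12.81 with PGN (none of 8 probe sets passed). The platelet list averaged 7.95 to 8.98 unstimulated and 6.96 to 7.85 with PGN (2 of 4 probe sets lower), the neutrophil list 11.83 to 12.02 and 11.38 to 11.62 (1 of 9 lower). The T cell list averaged 7.11 to 7.24 and 6.87 to 7.03 (2 of 17 probe sets higher, 1 lower). That average takes the brightest probe set of each gene. Over all 17 T cell probe sets the median PGN effect was 0.08, with 9 positive and 8 negative. The plasma cell list averaged 10.57 to 10.86 and 10.91 to 11.45 (4 of 10 higher, all of 1 gene). Averaged over strains, as these counts are, 10.0% of all probe sets passed. The part of these marker lists in the PGN values of the members and of the lists that follow was not tested.

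The genes that act with the members were followed in 5 lists. Of 13 measured genes that carry or restrain the interleukin-2 and interleukin-21 signal, 7 rose with PGN in at least 1 probe set and none fell (11 of 25 probe sets averaged over strains, beside 10.0% of all), with a list median of 0.73 against 0.04 over all probe sets. Il2ra, the inducible receptor chain for interleukin-2, rose by 2.69 ± 0.38 at 1420692_at and 1.50 ± 0.19 at 1420691_at. Cish, a feedback inhibitor induced by STAT5, rose by 2.66 ± 0.38, and Socs3, a broad inhibitor of cytokine receptors, by 4.29 ± 0.23 at 1416576_at. Il21r, the receptor for interleukin-21, differed by 1.17 ± 0.45 without passing (adjusted p 0.151, and 0.00999 with the block), and Il2rb by 0.28 ± 0.39. The other 14 probe sets of the list did not pass, and of the receptor chains named here only Il2ra did. Many of these genes also respond to other cytokines.

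The counts in the other lists stand beside the same 10.0% of all probe sets, and 15.3% with the block. Of 26 RNA exosome probe sets, the partners of Exosc9, none passed, and 2 were lower with the block. Among 49 probe sets of cyclins, their kinases and mitotic genes, Ccnd2 rose at 2 probe sets (1.15 ± 0.29 at 1455956_x_at) and Ccnd3 fell by 1.59 ± 0.36 at 1415907_at; with the block 6 were higher and 2 lower. In the BBSome list, 1 of 17 passed, a Bbip1 probe set that fell by 1.02 ± 0.16. The list of Sprouty, Spred and other genes around ERK feedback had 34 probe sets, and also held Fgf2, Fgfr1, Egr1, Etv4 and Etv5. In it, 4 probe sets of Spred1 and 1 of Dusp4 rose, the last by 2.47 ± 0.23, and Dusp6 fell by 2.45 ± 0.48. For the strain difference averaged over conditions no probe set of any of the 5 lists passed, with or without the block, and the list medians lay between -0.01 and 0.18. The highest of these medians, 0.18, was that of the list of Ccna2, and the RNA exosome median was -0.0042, beside 0.87 at Exosc9 itself.

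The genes whose 8-array pattern was most like that of 2 members were sought among 19366 other probe sets, for Ccna2 (1417910_at) and Ankrd50 (1435880_at). Of the genes' brightest probe sets that lie above the array median, these had the widest spread over the arrays. For Ccna2 these were Xpo7 (Pearson r 0.988), S100a13 (0.986), Wipi1 (0.982), Hcfc1 (0.981) and Ltf (0.981). For Ankrd50 they were Gnptab (0.981), Wdr1 (0.977), Adat2 (0.975), Ube2a (0.973) and Hp (0.970). The arrays share conditions and replicate numbers, so these values describe a common pattern over 8 points and no more.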

How the data were processed

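RNA of CD11b+ cells was read on 8 arrays, 2 in each of 4 groups taken from the labels. The deposited table gives an intensity for each probe set on every array, linear and ranging from 3.97 to 42906 with a median of 44.0. Per the labels, the authors used RMA, which gives log2 values, so the deposited intensities had been raised back to the linear scale. RMA's version and the chip definition were not found in the labels or headers. The plan had been to test the deposited values directly; they were first put on the log2 scale after their range was seen, with no further normalization, pseudocount or filter.

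Of 45101 probe sets, 64 controls were left out. Genes were assigned through the platform annotation: 34945 probe sets had 1 symbol, of which 34741 matched RefSeq GRCm38.p6, 932 had several and 9160 had none. Limma 3.58.1 (R 4.3.3) tested contrasts of the 4 group means (4 residual and 4.74 prior degrees of freedom) over 45037 probe sets. Passing means an adjusted p (Benjamini-Hochberg) below 0.05. The procedure was tested on simulated data with spreads taken from these arrays. Averaged over conditions, 29% of planted strain differences of 1 log2 unit were called, and 97% of those of 3 units. In the unstimulated comparison these shares were 1% and 79%. Many differences were planted together, and averaged over conditions 129 probe sets were called, where the real table had none. More calls make the Benjamini-Hochberg limit easier to pass, so these shares do not apply to a lone difference. No gap between replicate numbers was planted. Errors are limma standard errors and intervals cover 95%. The number of arrays limits the precision, and intensities give no depth.

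Per the array names, the replicate 1 arrays share a date, and the difference between replicates correlated at 0.144 to 0.355 over the 6 pairs of groups, so the replicate number was taken to pair arrays; the fit with it as a block is given where it changes a call. The alternatives were that block, a term for the suffix RR1 in 3 array names, a variance trend, a filter at the 40th percentile, quantile normalization, an offset of 16, 1 probe set per gene, array weights, only the arrays compared, and leaving out each array.

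The members, the gene lists and the marker lists were chosen with earlier results of these data known. Named were the members' every probe set, other genes between Anxa5 and Fat4, list genes that passed or stood near passing, and, for 2 members, the 5 genes of highest Pearson r. RefSeq promoter windows were used for 8 of the 10 genes; Exosc9 and Ccna2 are the others.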

Additional observations from a re-analysis of the deposited data

Results flagged for a closer look

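At 2 probe sets of Spata5 the strains differed in opposite directions in the 2 conditions. At 1448639_a_at the NOD.Idd3 arrays read 7.87 and 7.59 unstimulated, above the NOD arrays at 7.34 and 7.53, and 7.17 and 7.31 with PGN, below the NOD arrays at 7.48 and 7.43. At 1438844_x_at they read 7.77 and 7.66 against 7.26 and 7.59 unstimulated, and 7.13 and 7.33 against 7.59 and 7.41 with PGN. The PGN effect in NOD.Idd3 minus that in NOD was -0.51 ± 0.29 at the first and -0.56 ± 0.30 at the second, with unadjusted p of 0.112 and 0.0961 and limma adjusted p of 1.0 for both. The third bright probe set of the gene, 1417254_at, did not show the pattern. The first 2 read nearly alike on every array, each with a mean of 7.47, so they are hardly separate observations. The share of all probe sets with such a turn between 2 arrays and 2 was not counted.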

How the results depend on the processing

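The count of the 20 probe sets that passed for the averaged strain difference went from 0 to 1 with the replicate block, with the RR1 term and with the variance trend, and was 0 to 1 when single arrays were left out. For PGN in NOD it went from 1 to 3 with the block and to 0 with the RR1 term, the variance trend, quantile normalization, the offset of 16, 1 probe set per gene, array weights or only the arrays compared, and was 0 to 1 without single arrays. For PGN averaged over the strains it went from 1 to 4 with the block, to 2 with the filter at the 40th percentile or with array weights, and to 0 with the offset of 16, and was 0 to 2 without single arrays. The other 4 comparisons stayed at 0 under every alternative run. With the RR1 term, the variance trend, quantile normalization and 1 probe set per gene the count for PGN averaged over the strains stayed at 1, but the probe set was that of Ankrd50 (adjusted p 0.0455, 0.043, 0.0301 and 0.0476) in place of 1458401_at (0.064, 0.0565 and 0.0675 in the first 3). With 1 probe set per gene, neither 1457535_at nor 1458401_at is tested, which takes away the call for PGN in NOD; the cause of the other shifts was not tested. Among single probe sets and comparisons, 2194 values were recomputed. Of these, 2082 either stayed called, by whatever shift, or stayed uncalled and moved by under 1 SE. Another 69 stayed uncalled and moved further, 19 came to pass and 24 ceased to, and no called value changed sign. Of the uncalled values, 90 changed sign, the largest of them 0.68 in size. When 1 array was left out, its group kept 1 array, which was assumed to vary like the other groups. The signal of Il2, Il21, Bbs7 and Spry1, all under the array medians, limits what can be seen there.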
